A study of Mus musculus with 76 samples.

Results

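Cultured cells labelled as regulatory T cells (Treg) were compared between libraries labelled T20 and libraries labelled T0, averaged over genotype. The library titles start with Tregdiff, which is not explained in the sources used here, so whether the cells were Treg from the start or became so in culture is not known. The T20 side held 6 libraries and the T0 side 6, so 12 of the 76 samples of the series entered this comparison. They were chosen by the culture time in their labels, and no measured value was used. The series was built around mice carrying SOD1-G93A, a mutant SOD1 gene that causes motor neuron disease modelling amyotrophic lateral sclerosis, and it also held thymus, lymph node and sorted cell samples. The labels describe the cultures as Treg kept in vitro, with activation of differing length.

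Each time held 3 libraries with the genotype label Sod1Mut (called SOD1 here) and 3 with the label WT, and all carried the strain label SOD1-G93A. T0 was labelled as without activation, and T2 and T20 as activated. The unit of T, the stimulus, the cytokines added and the age of the donor mice of the cultures were not given in the sources used here. The protocol text described tissue digestion, staining and cell sorting, followed by the SMARTseq v4 low input kit, which amplifies cDNA from few cells. Nothing in the labels says whether the libraries of a group came from separate animals or cultures, so the p-values measure only the spread between these libraries, which may be technical. In bulk libraries, fewer cells of a type and less RNA per cell cannot be told apart.

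Treg are CD4 T cells that restrain immune responses, and the transcription factor Foxp3 maintains their program. They carry high levels of Il2ra, the alpha chain of the IL-2 receptor, and depend on IL-2 made by other cells. When the T cell receptor and a costimulatory receptor are engaged, a resting T cell gives up the transcription factors and homing receptors of quiescence, grows, raises glycolysis and protein synthesis, and divides.

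Total counts ran from 404578 to 2392534 per library at T0 and from 214318 to 19699330 at T20. Under 300000 counts were held by 2 T20 libraries (SOD1 2 and SOD1 3) and 2 T2 libraries, and a T20 against T0 comparison without these leaves 1 SOD1 library at T20. Loci holding more than 1% of a library took 16.2 to 38.9% of the T0 counts and 13.9 to 24.3% of the T20 counts. Mitochondrial genome transcripts took 3.16 to 6.27% at T0 and 1.46 to 3.09% at T20. A further 1971 olfactory and vomeronasal receptor genes, which T cells are not known for using and which were summed after the data were seen, came to 418.2 to 2119 counts per 1000000 (CPM, scaled for library size) at T0 and 105.4 to 267.5 at T20. Values with the non-coding loci left out are given below only for all genes, ribosomal protein genes and interferon response genes. Other lists moved in that setting too. The median of the Treg core genes was 3.47 against 3.17, and 25 quiescence genes fell against 29. Of the T cell identity genes 9 fell against 12, and of the superoxide defence genes 14 rose against 10. The part of the mitochondrial and receptor gene shifts was not tested.

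The genotype labels were checked by mouse Sod1 and by Gm8566, a processed pseudogene of Sod1 on chromosome 6 that is named after its values were seen. The counting may not separate reads of the transgene from those of either gene. Sod1 stood at 3033 to 3673 CPM in SOD1 and at 156.7 to 417 in WT libraries at T0, and at 3164 to 3649 and 288.7 to 361.6 at T20, so the genotypes did not overlap at either time. Gm8566 stood at 127 CPM in the library labelled T0 WT 2, against 17.8 and 5.89 in the other T0 WT libraries and 1634 to 1871 in the T0 SOD1 libraries. The library labelled T0 WT 2 also stood apart from the other T0 libraries in activation genes: it was the highest T0 library in 225 of the 387 list members that rose (58.1%), where each other T0 library was the highest in 25 to 46. Of the 514 list members that passed the test below, leaving out T0 WT 2 moved the fold change of 90 by over 1.5 times, leaving out T20 SOD1 1 moved 37, and each other library moved 0 to 16. These counts were made after the data were seen, and the moved values are given beside the genes named with a value.

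Of 11787 genes tested, 6863 (58.2%) differed between T20 and T0 by edgeR's quasi-likelihood test, where a call below always means a Benjamini-Hochberg adjusted p under 0.05. There were 2845 genes higher at T20 (24.1%) and 4018 lower (34.1%), so that 41.5% of the calls were higher. That split moved with the setting: 53.7% of the calls were higher with the non-coding loci above 1% left out, 54.1% without the libraries of low depth and 44.1% with median-of-ratios scaling. Leaving out T0 SOD1 3, T0 WT 1, T0 WT 3, T2 SOD1 3, T20 SOD1 3 or T20 WT 2, one at a time, gave 50 to 51.4%, and each other library 38.7 to 41.2%. Every T20 library lay above every T0 library in 1755 genes (14.9%) and below in 2310 (19.6%). The median log2 fold change of all tested genes was -0.25, and it was 0.05 with those loci left out. List medians below are to be read against -0.25, and counts of members that rose or fell against the 24.1% and 34.1% of all tested genes. In all, 31 gene lists were followed, with 645 members tested, of which 387 rose, 127 fell and 131 did not pass the test.

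The defining Treg markers rose in culture. Foxp3 (ENSMUSG00000039521.13, chromosome X, 7573644 to 7595245) stood at 3.56 to 31.8 CPM at T0 (median 6.92) and 39.5 to 325 CPM at T20 (median 98.6). Every T20 library was above every T0 library, with 109 counts of Foxp3 over all T0 libraries. The difference was a log2 fold change of 3.36 ± 0.51 (adjusted p = 2.63e-05), with 4.23 in log2 without T0 SOD1 3 and 2.74 without the libraries of low depth. Exons of Foxp3 overlap those of Ccdc22, Flicr and Ppp1r3f, and since the use of strand in counting was not given, reads in the shared stretches cannot be told apart.

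Il2ra (ENSMUSG00000026770.5, chromosome 2, 11642807 to 11693193) stood at 0.981 to 262 CPM at T0 (median 24.9) and 1177 to 2731 CPM at T20 (median 1341). The groups were far apart, and the highest T0 value belonged to T0 WT 2, with the other T0 libraries at 0.981 to 39.6 CPM. The difference was a log2 fold change of 5.02 ± 0.74 (adjusted p = 2.05e-05), and without T0 WT 2 the log2 fold change was 7.64. At T0, therefore, the label Treg rested on low levels of both defining markers, while the T cell markers Cd4 (200.4 to 288.3 CPM) and Cd3e (median 329 CPM) were well covered.

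Of 27 Treg core genes tested, 23 rose and 3 fell, with a median log2 fold change of 3.17. Their summed level was 1663 to 3104 CPM at T0 and 3833 to 6404 at T20, without overlap. Ikzf2, the transcription factor Helios, rose from a median of 33.1 to 117 CPM (1.57 ± 0.29 in log2), and Ctla4, an inhibitory receptor that competes for B7 ligands, rose from a median of 10.4 to 77.1 CPM (2.40 ± 0.59). Among the TNF receptor family members, Tnfrsf4 (OX40, 3.83), Tnfrsf9 (4-1BB, 4.36), Tnfrsf18 (GITR, 2.23) and Tnfrsf1b (TNFR2, 3.29) rose in log2. Lrrc32, which holds latent TGF-beta on the surface, rose by 2.97, Entpd1 (CD39) by 4.06 and Nt5e (CD73), which together turn ATP into adenosine, by 2.81. Il10 rose from a median of 0 to 8.32 CPM (log2 4.88 ± 1.37), but without T20 SOD1 1 its adjusted p was 0.21 at a log2 fold change of 3.61. The members that fell were Satb1, a chromatin organiser (-3.73), Prdm1, the transcription factor Blimp-1 (-1.40), and Nrp1, a semaphorin receptor of thymic Treg (-0.87). Leaving out T0 WT 2 gave log2 fold changes of 3.20 for Ctla4, 4.52 for Tnfrsf4, 6.44 for Tnfrsf9, 3.61 for Lrrc32, 7.39 for Entpd1 and 6.09 for Il10, and Entpd1 was at 4.82 without T0 SOD1 2. The falls of Nrp1 and Prdm1 were near the threshold and did not pass without any 1 of several libraries, for example at -0.42 (adjusted p = 0.36) for Nrp1 and -1.10 (adjusted p = 0.0888) for Prdm1 without T0 SOD1 3. Many of these genes are also raised in conventional T cells after activation, as Il2ra, Icos and Tnfrsf4 are known to be. With T0 WT 2 left out, 24 of the list rose and 2 fell.

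**Figure D1:**
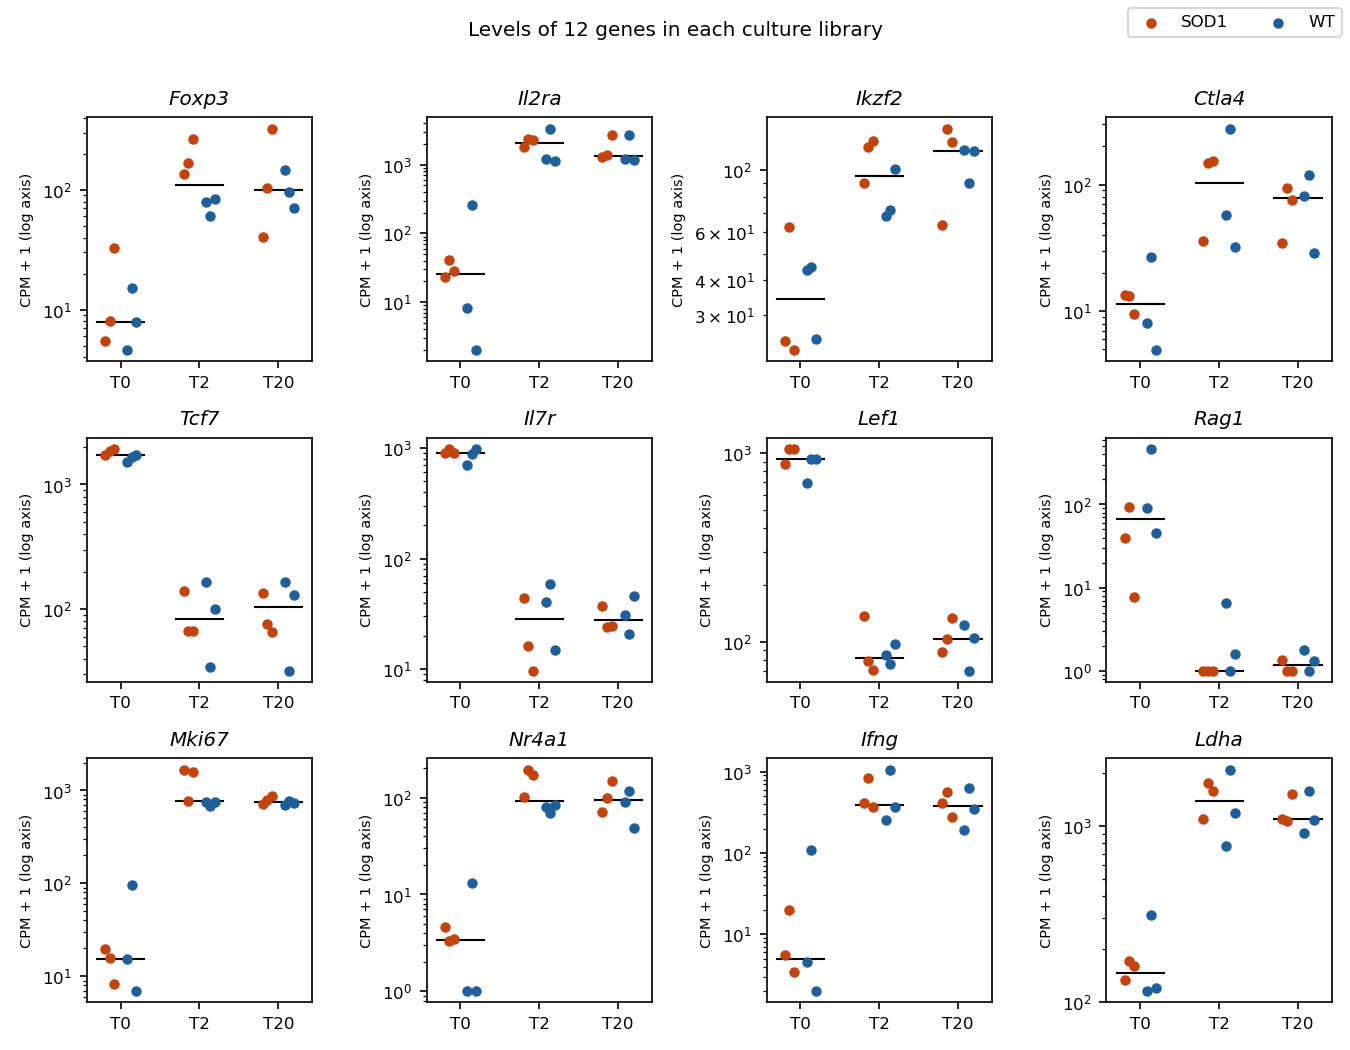
Normalised expression of 12 genes in the 18 culture libraries at T0, T2 and T20, in CPM plus 1 on a log axis; each point is a library, coloured by genotype, and the black line is the median of 6. Foxp3, Il2ra and Mki67 are low at T0 and high at T2 and T20, and Tcf7, Il7r, Lef1 and Rag1 run the other way.

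Genes of quiescent and naive T cells fell as a group. All 29 tested members were lower at T20, with a median log2 fold change of -2.64, and their summed level went from 10510 to 14720 CPM at T0 down to 1442 to 3479 CPM at T20. Tcf7, which encodes the transcription factor TCF-1 of naive and memory T cells, stood at 1509.8 to 1924 CPM at T0 (median 1711) and 30.9 to 163 CPM at T20 (median 102), a log2 fold change of -4.08 ± 0.41 (adjusted p = 3.55e-07), or -3.47 in log2 without the libraries of low depth. Il7r, the survival receptor of resting T cells, stood at 694 to 972 CPM at T0 (median 893) and 20 to 45.1 CPM at T20 (median 26.9), a log2 fold change of -4.81 ± 0.38 (adjusted p = 6.16e-08). In both genes every T20 library lay far below every T0 library. Lef1, the partner of TCF-1, fell by 3.17 in log2, and Cdkn1b, which holds cyclin-dependent kinases in check, fell by 3.48, or by 2.86 without T0 WT 1. Pik3ip1, a restraint on PI3 kinase, fell by 5.50 and was among the 15 most lowered genes named by rule. S1pr1, which guides T cells out of tissue, had a log2 fold change of -3.99 ± 0.54, and its regulator Klf2 had -1.98 ± 0.53. Bach2, a repressor of effector genes, had -1.16 ± 0.26, and its adjusted p was 0.0765 without the libraries of low depth. With T0 WT 2 left out, 28 members fell, and without the low-depth libraries 25 fell.

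Among other receptors and adhesion molecules, 28 were tested, 12 rose (42.9%) and 9 fell (32.1%), at a median of 0.23. Of all tested genes 24.1% rose and 34.1% fell, so the share that fell was near that of all genes. Ccr9, which guides T cells to gut and thymus, fell from a median of 344 to 7.05 CPM (log2 -5.15 ± 0.51), and Itga4, the integrin alpha 4 chain, fell from a median of 406 to 14.8 CPM (-4.30 ± 0.44). Ccr8, a receptor common on activated Treg, rose from a median of 3.01 to 71.3 CPM (4.27 ± 0.40), and Itgae (CD103), which binds E-cadherin, rose from a median of 5.25 to 74 CPM (4.04 ± 0.65). Ccr4, Ccr6, Cxcr3 and Cxcr6 also rose, by 2.28, 2.91, 1.78 and 1.48 in log2. The list rested in part on T20 SOD1 1: without it 7 rose, the median was -0.08, Ccr9 was at -6.05, and Ccr6 (2.70, adjusted p = 0.0529) and Cxcr6 (0.84, adjusted p = 0.27) did not pass. Ccr8 was at 5.23 without T0 WT 2, and Ccr6 at 5.06 without T0 SOD1 3 and 5.07 without T0 WT 3.

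Markers of double-positive thymocytes, the immature cells that rearrange T cell receptor genes, were present at T0 and low at T20. Of 14 members 10 fell and 2 rose, with a median of -2.47, and the summed level was 824.7 to 2205 CPM at T0 and 203.4 to 344.7 at T20. Rag1, the recombinase, stood at 6.72 to 462 CPM at T0 (median 66.6) and 0 to 0.759 CPM at T20 (median 0.162), a log2 fold change of -7.72 ± 0.93 (adjusted p = 4.43e-06), and Rag2 went from a median of 6.13 CPM to 0. The highest T0 value of Rag1 was in T0 WT 2, and the log2 fold change was -6.90 without that library and -9.22 without T20 SOD1 1. Dntt, the enzyme that adds bases at receptor junctions, fell from a median of 171 to 2.18 CPM (-6.23 ± 0.37), and Themis, needed for thymic selection, fell from a median of 296 to 18.6 CPM (-3.96 ± 0.37). With T0 WT 2 left out 8 members fell, and Rag2 ran from -3.47 without T0 SOD1 2 to -6.12 without T20 SOD1 1. These markers moved together with the fall of the quiescence genes and of Satb1, Tcf7 and Ccr9, which thymocytes also use, and their part in those results was not tested.

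Of 18 genes of T cell identity, 12 fell and 1 rose (median -1.01), with a summed level of 8101 to 9517 CPM at T0 and 3980 to 5089 CPM at T20. Cd28, the main costimulatory receptor, had a log2 fold change of -2.00 ± 0.25, Lck, the kinase that starts receptor signalling, -1.44 ± 0.19, Trbc1 -1.91 ± 0.24 and Cd4 -1.31 ± 0.29. Cd5, a damper of receptor signalling, rose (2.03 ± 0.25), while Cd3e (-0.07 ± 0.25, adjusted p = 0.83) and Zap70 (0.07 ± 0.20, adjusted p = 0.78) did not pass the test. Without the low-depth libraries 9 fell.

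Genes induced within the first hours of T cell receptor signalling were higher at T20 as well. Of 30 members 25 rose and 4 fell (median 2.55). Nr4a1 (Nur77), an orphan nuclear receptor widely used as a reporter of receptor signalling, stood at 0 to 12 CPM at T0 (median 2.39) and 47 to 149 CPM at T20 (median 93.5), a log2 fold change of 4.47 ± 0.47 (adjusted p = 5.69e-07), and the log2 fold change was 8.11 without T0 WT 2. Its relative Nr4a3 rose by 5.43, and Egr2 and Egr3, which temper activation, by 5.28 and 3.45. Irf4, whose level follows signal strength, rose from a median of 18.3 to 269 CPM, and Cd69, which retains T cells in tissue, from a median of 3.80 to 53 CPM. The AP-1 subunits Junb (2.33), Jun (1.60), Fos (2.85) and Fosl1 (4.08) rose in log2. The members that fell were Btg2 (-3.07) and Zfp36l1 (-1.16), both of which promote mRNA decay, Zfp36 (-0.92) and Ier5 (-0.52), of which Ier5 did not pass without any 1 of 14 libraries and Zfp36 not without T0 SOD1 3 (adjusted p = 0.0572) or T20 WT 2 (0.0602). Several rises were larger with 1 library left out: Nr4a3 (7.06), Egr2 (6.08), Fosl1 (5.55) and Cd69 (3.97) without T0 WT 2, Egr3 (4.31) without T0 SOD1 3, Irf4 (4.34) without T0 SOD1 1 and Fos (4.22) without T0 SOD1 2.

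In the NF-kappaB list of 21 genes, 12 rose (57.1%, against 24.1% of all tested genes) and 5 fell (23.8%, against 34.1%). The median was 0.88. The subunits Nfkb1 (2.05), Nfkb2 (2.55), Rel (1.38) and Relb (1.15) rose in log2, as did the nuclear cofactor Bcl3 (3.99), whereas Rela did not pass (-0.05 ± 0.17, adjusted p = 0.99). The kinases Ikbke (-2.46), Ikbkb (-1.16) and Map3k14 (-0.91) fell, together with Traf1 (-1.49) and Birc2 (-0.95). Map3k14 and Birc2 did not pass without T0 WT 3, at adjusted p = 0.12 and 0.10, nor without T0 SOD1 3 or T20 SOD1 3, and Birc2 also not without T0 WT 1, T20 WT 2 or T2 SOD1 3. Ikbkb, Ikbke and Map3k14 act upstream of the inhibitors and subunits, and Nfkbia, the main inhibitor, rose by 0.79.

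Of 28 costimulatory and checkpoint receptors and ligands, 20 rose and 4 fell (median 2.51). Cd44, the hyaluronan receptor of activated T cells, rose from a median of 11.4 to 239.9 CPM. Pdcd1 (PD-1, 3.23), Lag3 (3.18) and Tigit (3.78), all inhibitory, rose in log2, as did the PD-1 ligands Cd274 (2.31) and Pdcd1lg2 (4.22). Havcr2 (TIM-3) had 3 counts over all T0 libraries and 194 over the T20 libraries, a ratio of 15.9 after scaling for depth with a 95% counting interval of 5.38 to 78, but its rise rested on T20 SOD1 1 (log2 1.40, adjusted p = 1 without it). With T0 WT 2 left out, Lag3, Tigit and Pdcd1lg2 were at 5.55, 6.14 and 7.05 in log2. Cd40lg (-3.58), which licenses B cells, Cd27 (-3.01), Cd28 and Tnfrsf14 (-1.27) fell.

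The IL-2 pathway rose at several levels. Of 20 genes of IL-2 and common gamma chain signalling 14 rose and 2 fell (median 1.29). Il2rb, the signalling beta chain, stood at 10.7 to 85.5 CPM at T0 (median 20.9) and 517 to 772 CPM at T20 (median 554), a log2 fold change of 4.26 ± 0.37 (adjusted p = 9.75e-08), without overlap, while Il2rg, the shared gamma chain, did not pass (0.14 ± 0.18, adjusted p = 0.53). The feedback inhibitors Cish, Socs1 and Socs2, which are STAT5 targets, rose by 3.29, 2.67 and 4.24 in log2. Cish was at 4.96 and Il2rb at 4.97 without T0 WT 2, and Cish at 3.90 without T0 SOD1 3. Stat5a rose (2.44) and Stat5b did not pass (-0.32 ± 0.16, adjusted p = 0.0989). Jak3, the kinase bound to the gamma chain, rose (2.12), and Jak1 fell (-2.45), the only fall besides Il7r. Il2 itself was too low to test, with 8 counts over the T0 libraries and 76 over the T20 libraries. These counts are not scaled for depth, and T20 WT 1 alone held 19699330 total counts, against at most 2392534 in a T0 library.

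Cytokines, chemokines and cytotoxic effectors had the largest median of the lists with more than 20 tested members. Of 36 members 27 passed the filter on low counts, and of these 24 rose and 0 fell. The median log2 fold change was 4.21, or 4.09 with Il3 at its bound, and 6.06 without T0 WT 2. A member near 0 at T0 could pass the filter only through T2 or T20 and could hardly fall. The counts and the median therefore depend in part on that filter. With no filter on low counts, 30 rose and 0 fell. Their summed level was 547.4 to 1206 CPM at T0 and 2809 to 4850 CPM at T20. Ifng, the type 1 helper cytokine, stood at 0.981 to 108 CPM at T0 (median 4.02) and 189 to 625 CPM at T20 (median 379), a log2 fold change of 4.35 ± 0.71 (adjusted p = 5.52e-05), and the T0 maximum was again T0 WT 2, without which the log2 fold change was 6.73, while it was 5.07 without T0 SOD1 2. Gzmb, a granule protease, stood at 0 to 141 CPM at T0 (median 9.65) and 196 to 723 CPM at T20 (median 484), a log2 fold change of 4.24 ± 0.76, or 7.25 without T0 WT 2. Lta, lymphotoxin alpha, rose from a median of 14.9 to 668 CPM, Ccl4 from a median of 6.24 to 338 CPM and Ccl3 from a median of 2.68 to 125 CPM, both chemokines that draw in T cells and macrophages. The type 2 cytokines Il13 (from a median of 2.70 to 86.8 CPM), Il9 (from a median of 0.873 to 62.3 CPM) and Il4 (from a median of 0.873 to 15.8 CPM) rose too, but Il4 had an adjusted p of 0.21 at 2.13 without T20 SOD1 1. The rises without T0 WT 2 were 6.45 for Lta, 9.39 for Ccl4, 6.54 for Ccl3, 6.02 for Il13, 8.47 for Il9 and 6.61 for Il4 in log2, and Il9 was at 4.24 without T20 SOD1 1 and 4.59 without T20 WT 3. Il17a rose from a median of 1.03 to 2.60 CPM (2.34 ± 0.82, adjusted p = 0.0204). Its rise rested on 7 counts at T0 and 91 at T20, not scaled for depth. Il17a did not pass without T0 WT 2 (adjusted p = 0.0744), without T20 SOD1 1 or without T20 WT 3. Il3 had no count at T0 and 111 at T20, at least 9.13-fold higher when set against 3 counts over the T0 group. Csf1, Ltb and Ccl5 did not pass, at 1.03 ± 0.67, 0.30 ± 0.22 and -0.53 ± 0.64 in log2.

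Of 26 lineage transcription factors 14 were higher (53.8%, against 24.1% of all tested genes). A further 11 were lower (42.3%, against 34.1% of all tested genes), and the median was 0.84. Irf8 rose from a median of 7.23 to 405 CPM, Tbx21 (T-bet), which drives the type 1 program, from a median of 2.65 to 84.3 CPM, and Eomes, its relative, from a median of 3.61 to 28.9 CPM. Batf and Batf3, partners of Irf4, rose by 3.17 and 3.73 in log2, and Maf and Ahr by 2.96 and 2.95. These rises too were larger without T0 WT 2, at 6.03 for Irf8, 7.78 for Tbx21, 4.65 for Batf3, 3.76 for Batf and 3.57 for Ahr, and Batf3 was at 3.06 without T20 SOD1 1. Gata3, which drives the type 2 program, fell from a median of 442 to 109 CPM (-2.45 ± 0.52), although the log2 fold change was -1.52 without T0 WT 1. Ets1 (-1.73), Ikzf1 (-1.29), Runx1 (-1.29), Bcl6 (-1.74) and Id3 (-1.81), all factors of resting or thymic lymphocytes, fell. Without the low-depth libraries 6 of these factors fell.

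Cytotoxic lymphocyte markers moved with the effector genes: 7 of 11 rose and 1 fell (median 3.22), with a summed level of 91.0 to 417 CPM at T0 and 463 to 1171 at T20. Nkg7, a granule protein, rose from a median of 10.6 to 242 CPM. The defining marker Cd8b1 fell from a median of 57 to 9.20 CPM, and Cd8a did not pass (0.49 ± 0.52, adjusted p = 0.43, 0.035 with no filter on low counts). Of these markers, Gzma, Prf1, Eomes, Xcl1 and Ccl5 also stand in the lists above or are used by activated CD4 cells, and their part was not tested. B cell and myeloid lists held few testable members: Cd79a and Lyz2 were too low to test, 2 of 5 B cell markers fell (1 rose) and 2 of 6 myeloid markers fell (3 rose). The B cell markers summed to 364.1 to 559.3 CPM at T0 and 174.3 to 295.5 at T20, mostly from Ighm, and the myeloid markers to 101.2 to 373.9 and 74.4 to 140.1, with Itgam at a median of 0 at T20. Erythroid markers summed to 20.5 to 50.7 CPM at T0 and 0 to 6.28 at T20, and epithelial and stromal markers to 170.2 to 316.9 and 18.7 to 46.1.

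**Figure D2:**
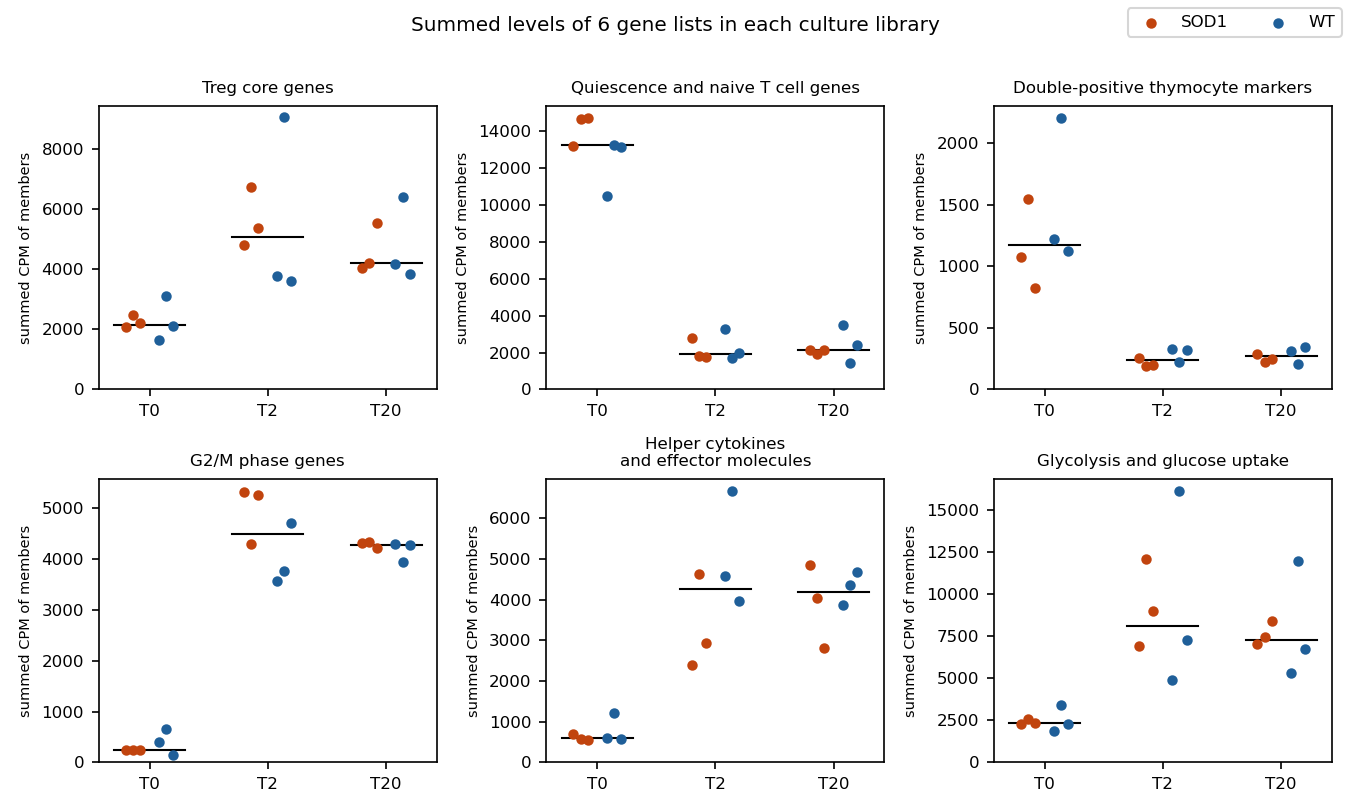
Summed CPM of the members of 6 gene lists in each culture library at T0, T2 and T20, coloured by genotype. The black line is the median of 6. Treg core, G2/M, helper cytokine and glycolysis sums at T20 lie above every T0 library, and quiescence and thymocyte sums lie below.

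Cell division genes rose nearly without exception. Of 30 G2/M genes 29 rose and 0 fell (median 3.87), with a summed level of 142.3 to 658.5 CPM at T0 and 3938 to 4344 at T20, and only Kif23 did not pass (0.26 ± 0.31). Mki67, the proliferation antigen Ki-67, stood at 5.89 to 95.3 CPM at T0 (median 14.4) and 702 to 863 CPM at T20 (median 752), a log2 fold change of 4.99 ± 0.48 (adjusted p = 2.55e-07), and T0 WT 2 held the T0 maximum, so that the log2 fold change was 6.16 without it. Top2a, which untangles chromosomes, rose from a median of 7.78 to 587 CPM, Cdk1, the mitotic kinase, from a median of 7.03 to 167 CPM, Kif11, a spindle motor, from a median of 3.53 to 114 CPM, and Cdc20, an activator of the anaphase promoting complex, from a median of 9.41 to 129.9 CPM. Of 38 S phase genes 35 rose and 0 fell (median 2.20). Rrm2, the inducible subunit of ribonucleotide reductase, rose from a median of 6.52 to 274 CPM, Mcm5, a subunit of the replicative helicase, from a median of 14.2 to 178 CPM, and Cdc6, which loads that helicase, from a median of 1.95 to 71.8 CPM. Leaving out T0 WT 2 put Top2a at 6.68, Rrm2 at 5.54 and Cdc6 at 5.0 in log2. E2f1, a driver of this program, did not pass (0.06 ± 0.27, adjusted p = 0.87).

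Promoter stretches are shown for members of the lists that moved together, since textbook elements of cell cycle genes can be read in them. RefSeq windows (GRCm38.p6) gave 250 bases before each start, searched on both strands, and the genes and stretch lengths printed were chosen after the motif search. The cell cycle homology region, TTTGAA, stood in 8 of the 24 G2/M genes with a window (33.3%), against 18.3% of all 27025 genes. Capitals mark the match, on either strand, in these stretches of 100 bases, 5′ to 3′ along the gene:
Kif11, chr19:37376282-37376381 plus strand: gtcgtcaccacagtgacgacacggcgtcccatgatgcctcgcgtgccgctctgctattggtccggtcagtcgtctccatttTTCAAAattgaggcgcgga
Cdk1, chr10:69352913-69353012 minus strand: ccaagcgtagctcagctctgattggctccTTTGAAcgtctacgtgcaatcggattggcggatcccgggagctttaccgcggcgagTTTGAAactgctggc
Prc1, chr7:80294376-80294475 plus strand: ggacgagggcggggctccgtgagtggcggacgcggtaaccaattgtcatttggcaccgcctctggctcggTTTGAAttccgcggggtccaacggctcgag
Cdc20, chr4:118437344-118437443 minus strand: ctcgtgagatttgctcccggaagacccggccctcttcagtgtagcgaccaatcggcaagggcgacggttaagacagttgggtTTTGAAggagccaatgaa

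For the E2F motif, TTTGGCGC stood in 3 of 32 S phase genes (9.38%) against 0.485% of all genes, and TTTCCCGC in 3 of 32 (9.38%) against 1.03%. The stretches of 200 bases below hold TTTGGCGC or its reverse complement in Mcm5, Mcm6 and Pola1 and the reverse complement of TTTCCCGC in Cdc6, in capitals:
Mcm5, chr8:75109309-75109508 plus strand: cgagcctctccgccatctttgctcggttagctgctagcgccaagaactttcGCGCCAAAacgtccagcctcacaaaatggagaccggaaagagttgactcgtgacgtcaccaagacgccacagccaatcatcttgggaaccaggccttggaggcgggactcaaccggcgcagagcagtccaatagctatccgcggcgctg
Mcm6, chr1:128359706-128359905 minus strand: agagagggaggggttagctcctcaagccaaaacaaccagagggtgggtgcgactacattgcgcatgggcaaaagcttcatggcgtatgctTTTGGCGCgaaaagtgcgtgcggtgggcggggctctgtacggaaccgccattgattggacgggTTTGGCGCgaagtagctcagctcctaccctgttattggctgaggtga
Pola1, chrX:93632156-93632355 minus strand: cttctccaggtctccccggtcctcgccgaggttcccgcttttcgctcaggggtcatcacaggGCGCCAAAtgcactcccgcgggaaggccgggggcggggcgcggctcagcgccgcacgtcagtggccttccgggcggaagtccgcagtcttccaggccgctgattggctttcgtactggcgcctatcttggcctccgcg
Cdc6, chr11:98907951-98908150 plus strand: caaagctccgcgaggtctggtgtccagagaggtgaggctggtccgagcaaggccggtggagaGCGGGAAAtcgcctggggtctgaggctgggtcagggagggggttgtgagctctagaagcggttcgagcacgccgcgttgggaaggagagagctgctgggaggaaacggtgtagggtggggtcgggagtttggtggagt

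The genes of these stretches rose at T20 by 3.55 (Mcm5), 2.17 (Mcm6), 2.45 (Pola1) and 4.17 (Cdc6) in log2, with Pola1 at 3.24 without T0 WT 2 and 3.21 without T0 SOD1 3. The other genes with TTTCCCGC, E2f7 and Mcm7, rose less, by 1.88 and 0.60. E2f7 was at 2.78 without T0 SOD1 3. Mcm7 did not pass without T0 SOD1 1 (adjusted p = 0.0617) or T20 WT 3 (0.0923). A match describes letters in a window and is not evidence of a bound factor. The other motifs searched were TTCNNNGAA (STAT) in 2 of 18 IL-2 pathway genes (11.1% against 8.13%), the NF-kappaB motif in 13 of 17 genes of that list (76.5% against 48.7%) and the sterol regulatory element in 1 of 18 cholesterol genes (5.56% against 0.703%). The 2 genes with the STAT motif were Il7r (-4.81) and Socs3 (-0.18), neither of which rose. The interferon-stimulated response element stood in 9 of 20 interferon response genes (45% against 3.46%), a list whose members did not move together.

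Among cyclins, their inhibitors and p53 targets, 10 of 24 rose (41.7%, against 24.1% of all tested genes). A further 7 fell (29.2%, against 34.1%), and the median was 0.49. Ccnd2 (from a median of 91 to 590.0 CPM), the early G1 cyclin, and its partners Cdk4 (1.48) and Cdk6 (2.92) rose, while Ccnd3 (-0.87) and Rb1 (-1.86) fell. Inhibitors went in opposite directions: Cdkn1a (p21) rose from a median of 1.10 to 68.8 CPM, Cdkn2c rose by 2.21, and Cdkn1b fell. Cdkn1a was at 5.97 in log2 without T0 WT 2, and Ccnd3 did not pass without T0 WT 3 (-0.60, adjusted p = 0.102), T20 WT 2 or T2 SOD1 3. Trp53 itself did not pass (0.24 ± 0.19). In the BCL-2 family 7 of 15 rose (46.7%) and 3 fell (20%), with a median of 0.66. The survival members Bcl2 (from a median of 35.8 to 152 CPM) and Bcl2l1 (from a median of 29.3 to 88.8 CPM) rose. The survival member Mcl1 fell (-0.76). Of the killers, Bak1 (2.35) and Bax (1.11) rose, while Bik (-2.19) and Bmf (-1.72) fell. Bik ran from -1.14 without T0 WT 1 (adjusted p = 0.14) to -5.235 without T20 SOD1 1. Bmf did not pass without any 1 of several libraries, for example T0 WT 2 (-1.21, adjusted p = 0.17), and was at -2.425 without T20 WT 1. The paralogs Bcl2a1b (2.65) and Bcl2a1d (2.93) share sequence, so their split is uncertain. Bcl2a1d ran from 2.10 without T20 SOD1 1 to 4.29 without T0 WT 2, and Mcl1 did not pass without any 1 of T0 SOD1 3, T0 WT 3, T20 SOD1 3 and T20 WT 2. No member of this family fell without the low-depth libraries.

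Growth genes rose broadly. Of 36 ribosome biogenesis genes and MYC targets 29 rose and 3 fell (median 1.43). Myc rose from a median of 87.9 to 251 CPM (1.49 ± 0.22), and its textbook targets Odc1, which makes polyamines, Npm1 and Ncl, both nucleolar proteins, rose from a median of 17.3 to 243 CPM, from a median of 366 to 2049 CPM and from a median of 425 to 2144 CPM. Polr1a (-1.64), Wdr12 (-1.82) and Mxd4 (-2.59), the last an antagonist of MYC, fell, with Polr1a at -0.85 without T0 WT 1. Of 33 ribosomal protein genes 19 rose and 0 fell (median 0.83), led by Rps2 (1.84) and Rpsa (1.58), and 28 rose with the non-coding loci left out. The E-box CACGTG, which MYC binds, stood in 4 of 29 biogenesis genes with a window (13.8%), against 6.86% of all genes. Of these, Eif4a1, Eif4e and Nop2 rose and Mxd4 fell, and 2 of the stretches of 100 bases are shown with the match in capitals:
Eif4e, chr3:138527168-138527267 plus strand: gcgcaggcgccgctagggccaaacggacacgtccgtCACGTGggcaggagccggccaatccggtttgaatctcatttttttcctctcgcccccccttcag
Nop2, chr6:125131783-125131882 plus strand: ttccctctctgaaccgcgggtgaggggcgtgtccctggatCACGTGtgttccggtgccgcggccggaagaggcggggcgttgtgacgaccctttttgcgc

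Metabolic genes rose in most lists. In glycolysis and glucose uptake 18 of 26 rose and 2 fell (median 1.48). Ldha, which makes lactate, stood at 114 to 311 CPM at T0 (median 145) and 914 to 1594 CPM at T20 (median 1093), a log2 fold change of 2.85 ± 0.31 (adjusted p = 8.57e-07), without overlap. Hk2, the inducible hexokinase, rose from a median of 1.77 to 80.9 CPM (log2 4.91 ± 0.64, or 8.30 without T0 WT 2), and Slc2a1, the glucose transporter GLUT1, from a median of 21.2 to 67.1 CPM (1.42 ± 0.32). Pdk1, which inhibits pyruvate dehydrogenase, fell from a median of 410.2 to 29.7 CPM (-4.19 ± 0.26), and Ldhb, the other lactate dehydrogenase chain, from a median of 85.6 to 14.1 CPM. Slc2a3, the other main glucose transporter of T cells, did not pass (-0.72 ± 0.41).

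Of 23 genes of amino acid transport and of serine and folate metabolism 17 rose and 2 fell (median 1.96). Slc7a5, the large neutral amino acid transporter, stood at 3.56 to 61 CPM at T0 (median 18.6) and 85 to 498 CPM at T20 (median 193), a log2 fold change of 3.17 ± 0.54, and Psat1 and Mthfd2, of serine and mitochondrial folate metabolism, rose by 3.95 and 3.06 in log2. Without T0 WT 2 the 3 genes were at 4.24, 4.57 and 3.78. The 2 that fell were the transporters Slc43a1 (-3.49) and Slc38a2 (-2.11). Of 28 genes of cholesterol and fatty acid synthesis 19 rose and 2 fell (median 1.21): Idi1 (2.87), Cyp51 (2.39) and Hmgcs1 (1.13) of sterol synthesis and the desaturases Scd1 (4.39) and Scd2 (4.0) were higher, and the efflux pump Abcg1 (-1.08) lower, with Scd1 at 6.05 and Scd2 at 4.72 without T0 WT 2. Their regulators Srebf1 (-0.01 ± 0.25) and Srebf2 (-0.14 ± 0.25) did not pass.

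Of the respiratory chain genes, those encoded in the nucleus mostly rose. Of 32 in the nucleus 25 rose and 1 fell (median 1.10), with Cycs, cytochrome c, going from a median of 111 to 751 CPM, and Sdha as the fall (-0.58), which did not pass without any 1 of 6 libraries (at -0.29, adjusted p = 0.35, without T20 SOD1 3). Of 13 encoded in mitochondria 0 rose (0%, against 24.1% of all tested genes) and 6 fell (46.2%, against 34.1%). Their median was -0.84, and mt-Co1 (-1.09) and mt-Nd4 (-1.19) were among those that fell. The other 7 did not pass. These transcripts move with the mitochondrial share of each library given above, and none of them passed as lower without the low-depth libraries.

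Chaperones and redox genes moved too. In the integrated stress and unfolded protein response 17 of 27 rose and 3 fell (median 1.54). The largest rise was that of Asns (3.28), and Cebpb rose by 3.27. Asns was at 4.21 without T0 SOD1 1, and Cebpb at 6.26 without T0 WT 2 and 4.0 without T0 SOD1 3. The lumenal proteins Sdf2l1 (2.98) and Hspa5 (1.91) rose too, with Xbp1 at 2.62 and Trib3 lower (-2.18). Of 22 heat shock chaperones 16 rose and 2 fell (median 1.08), and Hspd1, the mitochondrial chaperonin, rose from a median of 154 to 1024 CPM. Of 21 genes of superoxide and peroxide defence, the pathway of SOD1, 10 rose (47.6%) and 4 fell (19%), with a median of 0.63. Gpx1 (2.13), Txn1 (1.82) and Prdx2 (1.5) rose, while Nfe2l2, which encodes the transcription factor NRF2, fell from a median of 116 to 26 CPM and Cat, catalase, had -0.96 ± 0.23. Sod1 did not pass (0.18 ± 0.31, adjusted p = 0.64), and neither did Sod2 (0.82 ± 0.37, adjusted p = 0.0641).

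Interferon response genes did not move as a group: 6 of 27 rose and 6 fell. Their median was -0.22, close to that of all genes, and 0.08 with the non-coding loci left out. Bst2, tetherin, rose by 3.27, while the interferon-inducible Ifi208 (-3.39), Ifi213 (-3.02) and Ifi204 (-3.59) fell, at -6.76, -6.04 and -5.08 without T20 SOD1 1. Ifi213 was at -2.37 without T0 SOD1 1 and -4.17 without T20 WT 3, and Ifi204 at -4.57 without T20 WT 1. Irf9, which carries the interferon signal to the nucleus, did not pass (-0.14 ± 0.34).

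**Figure D3:**
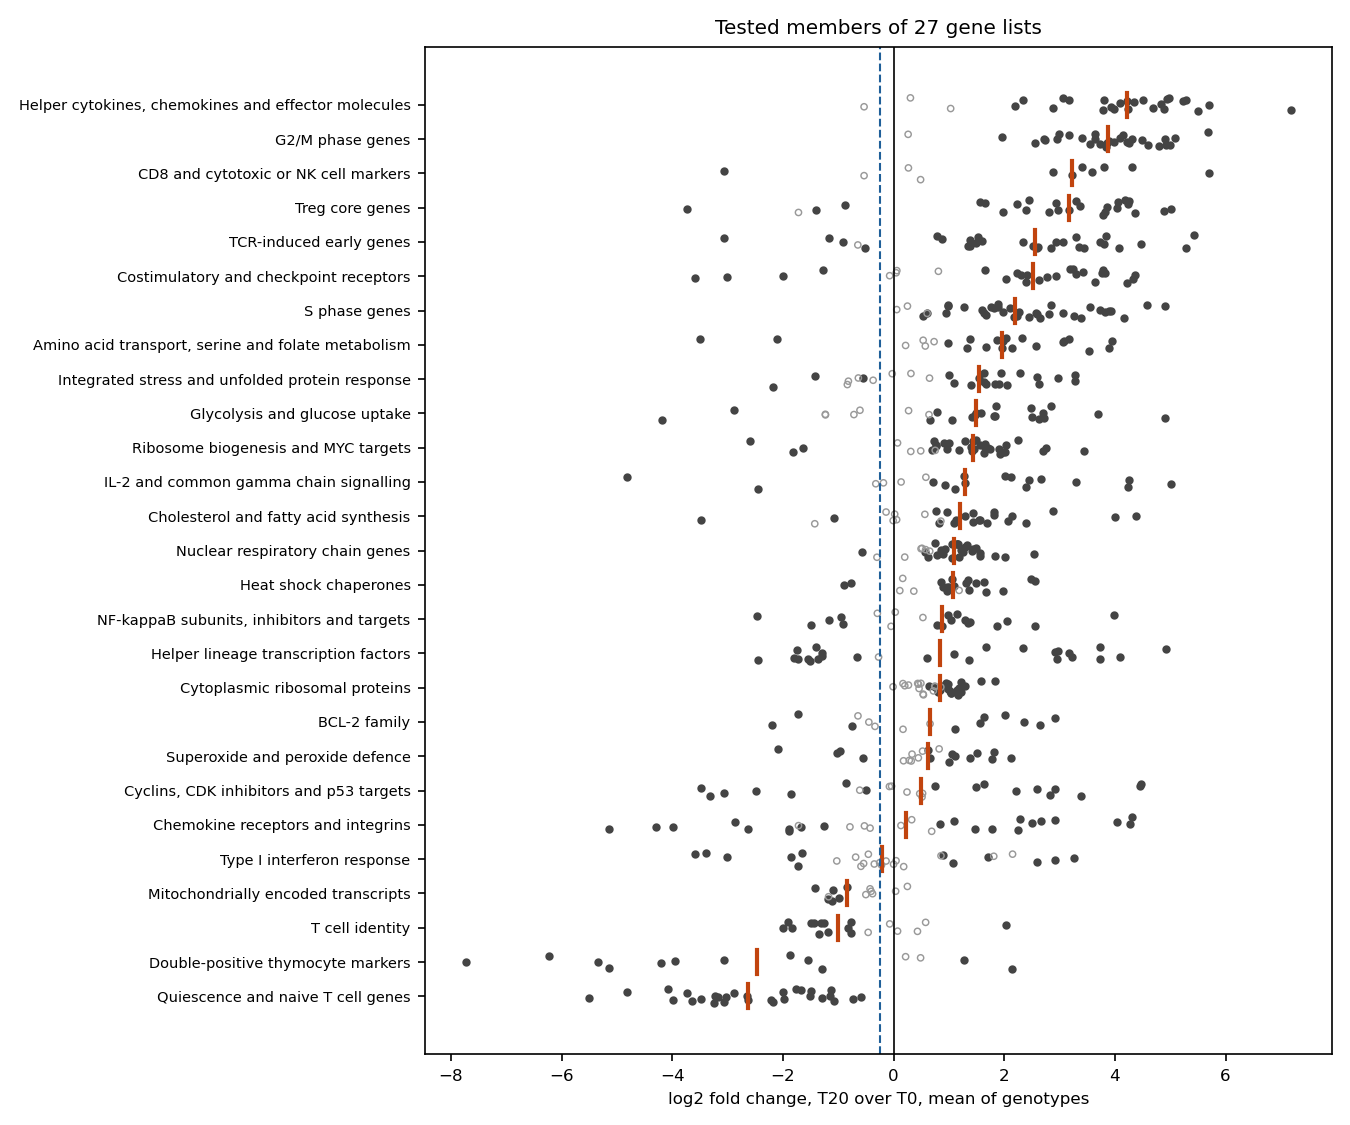
Log2 fold change of T20 against T0 for each tested member of 27 gene lists; filled points have an adjusted p under 0.05, open points do not, orange bars are list medians and the dashed line is the median of all tested genes (-0.25). Quiescence genes lie wholly below 0, and helper cytokine and G2/M genes almost wholly above.

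By a rule on size, the 15 most raised and 15 most lowered genes were taken from those with at least 20 CPM on the higher side and no overlap between the groups outside the low-depth libraries. The raised genes were Ifitm2, Lgals3, Apol9b, Xcl1, Nusap1, Ifitm3, Csf2, Cep55, Nr4a3, Tbkbp1, Hist2h3c2, Gzmc, Egr2, Il9 and Shcbp1. Lgals3, galectin-3, rose from a median of 2.81 to 227 CPM (5.79 ± 0.54), and Ifitm3, an antiviral membrane protein, from a median of 0.893 to 27.1 CPM (5.64 ± 0.94). Ifitm2 had 3 counts over all T0 libraries and 1289 over the T20 libraries, a ratio of 106 (95% counting interval 36.2 to 515), and Apol9b 3 and 1074, a ratio of 88.3 (30.1 to 429). Csf2, which encodes GM-CSF, and Xcl1, a chemokine for dendritic cells, rose by 5.51 ± 0.74 and 5.70 ± 0.82, or by 8.93 and 9.39 without T0 WT 2, and Csf2 by 6.91 without T0 SOD1 1 and 4.85 without T20 SOD1 1. The log2 fold change was also larger without T0 WT 2 in Nusap1 (5.69, then 10.18), Gzmc (5.28, then 9.39), Hist2h3c2 (to 8.85), Cep55 (5.47, then 8.53), Tbkbp1 (5.42, then 7.60) and Lgals3 (6.67), and in Ifitm2 (9.79) and Apol9b (7.69), whose T0 counts are few. Leaving out T0 SOD1 2 gave 7.29 for Cep55, 6.60 for Shcbp1 and 6.79 for Tbkbp1, T0 SOD1 3 gave 6.28 for Ifitm3, and T0 SOD1 1 gave 7.16 for Apol9b. Cep55, Nusap1 and Shcbp1 are genes of mitosis and its final abscission. Nusap1 overlaps Oip5, Hist2h3c2 belongs to a family of near-identical histone genes and Gzmc to the granzyme family, so counts of these are uncertain.

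The lowered genes were Slc6a19, Kcna2, Rag1, Synm, Olfr417, Dntt, Rflnb, Tmub2, Rnf32, Zrsr1, Lypd6b, Slc16a5, Tdrp, Pik3ip1 and Prss45. Slc6a19, a neutral amino acid transporter best known from kidney and gut, fell from a median of 132 to 0.625 CPM (-8.95 ± 0.47), and Kcna2, a voltage-gated potassium channel, from a median of 27.2 to 0 CPM (-7.76 ± 0.81). Synm, an intermediate filament protein of muscle, fell from a median of 58.9 to 0.0893 CPM, and Olfr417, an olfactory receptor, from a median of 110.0 to 1.71 CPM. Several of these are not known as T cell genes, and they fell together with the summed olfactory and vomeronasal receptors and with 3 of the 4 tested epithelial and stromal markers (1 rose). The part of those in the result was not tested. Of the lowered genes, 5 had log2 fold changes that were smaller without T0 WT 1: Synm (-7.23, then -4.72), Olfr417 (-5.34), Zrsr1 (-4.06), Tmub2 (-5.41) and Tdrp (-4.91). Larger falls without T20 SOD1 1 were those of Synm (-9.91), Rflnb (-8.99), Lypd6b (-7.66), Rnf32 (-7.51), Prss45 (-6.98) and Tmub2 (-6.76), and Slc16a5 was at -4.39 without that library and -7.24 without T20 SOD1 2. Rnf32 was at -6.86 without T20 WT 1 and Tmub2 at -6.83 without T20 WT 3. Zrsr1 lies inside Commd1, and its reads cannot be told apart from that gene's.

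The change was found in each genotype. In SOD1, 2005 genes rose (17%) and 2765 fell (23.5%), and in WT 1840 rose (15.6%) and 2841 fell (24.1%), with 3 libraries a side. These are 2 separate sets of libraries: 1493 genes rose and 2074 fell in both, and 0 were called in opposite directions. A test of the genotype difference called 0 of 11787 genes (0%), with a lowest adjusted p of 0.74 and 444 genes (3.77%) at an unadjusted p under 0.05, and DESeq2 called 1. Foxp3 had a log2 fold change of 3.34 ± 0.70 in SOD1 and 3.39 ± 0.74 in WT, and Tcf7 -4.28 ± 0.59 and -3.88 ± 0.57. Il2ra had 5.90 ± 1.10 in SOD1 and 4.13 ± 1.0 in WT, and the difference did not pass the test (adjusted p = 0.9999).

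Which genotype had the larger rise moved with 1 library. Of the 387 list members that rose, 266 had the larger change in SOD1, with medians of 2.23 in SOD1 and 1.98 in WT. Without T0 WT 2 it was 130 of 387, with medians of 2.23 and 2.25. These values were computed after the data were seen. A genotype difference was called in 0 genes by edgeR's test with the filter on low counts, in 58 without that filter and in 1 by DESeq2, and none of these counts shows that the genotypes respond alike.

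**Figure D4:**
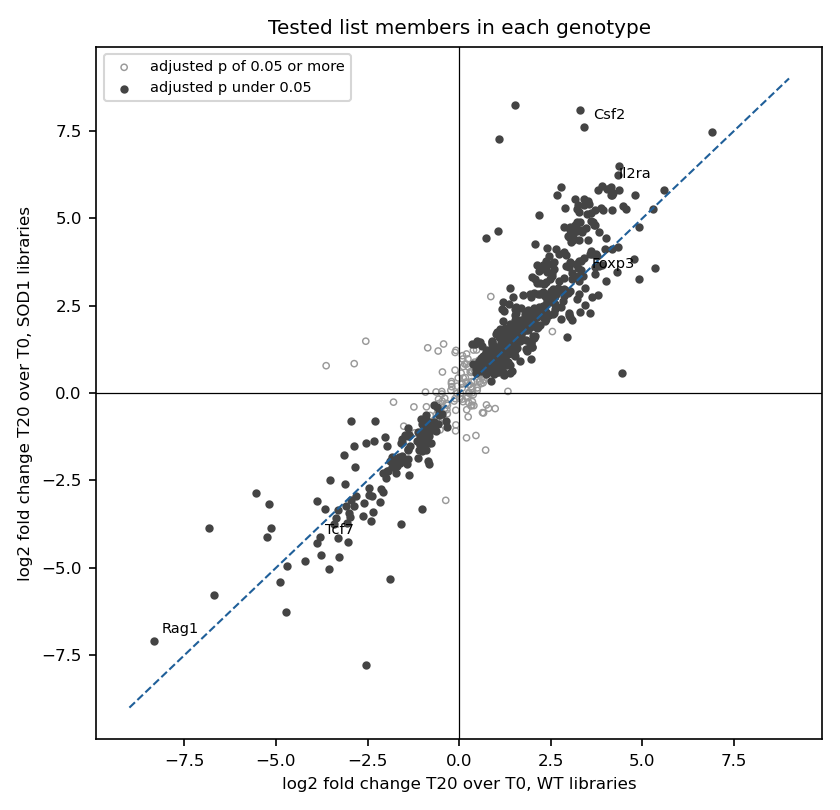
Log2 fold change of T20 against T0 for each tested list member in WT (horizontal) and in SOD1 (vertical), with a dashed line of equal change. Most members lie in the quadrants of equal sign, and 266 of the 387 that rose lie above the dashed line.

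The earlier activated time, T2, was set beside T20. Against T0, which both comparisons share, T2 had 2802 genes higher (23.8%) and 4048 lower (34.3%). T20 against T2 called 0 genes (0%), with 457 (3.88%) at an unadjusted p under 0.05, and DESeq2 called 3. Foxp3 stood at 59.4 to 265 CPM at T2 (median 109), Il2ra at 1129 to 3364 CPM at T2 (median 2068), Tcf7 at 33.1 to 163 CPM at T2 (median 82.6) and Mki67 at 685 to 1677 CPM at T2 (median 765). In log2, Foxp3 differed from T0 by 3.26 ± 0.51 at T2 and by 3.36 ± 0.51 at T20, Nr4a1 by 4.71 ± 0.47 and 4.47 ± 0.47, and Gzmb by 4.91 ± 0.78 and 4.24 ± 0.76. No list member was called between T2 and T20. Between those times the log2 difference of Foxp3 was 0.11 ± 0.45 and of Ctla4 -0.79 ± 0.53, T20 minus T2, and with 2 low-depth libraries on each side small differences were not detectable.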

How the data were processed

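RNA-seq of 18 culture libraries was used, 6 each at T0, T2 and T20. Per the labels' protocols, libraries were made with the SMARTseq v4 kit from sorted cells. The authors deposited whole-number counts per gene, with no normalization, and the submitters' processing notes name DESeq2 and mm10. The aligner, the counter and the use of strand were not given in the sources used here. The table has 55487 gene IDs. Symbols and positions were taken from GENCODE vM21 for the 55094 found there. Groups came from the labels.

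Counts were tested with edgeR 4.0.16 in R 4.3.3: filterByExpr by group (11787 genes left), TMM scaling, trended dispersion and the quasi-likelihood test, with all 18 libraries in 6 groups of 3. Contrasts averaged the genotypes. Adjusted p-values are Benjamini-Hochberg over all genes tested, and errors of log2 fold changes are standard errors. CPM were computed here per 1000000 counts in tested genes, scaled by TMM. CPM are not per gene length, so levels are compared between libraries and not between genes. Total counts of 171619 to 19699330 per library set the precision: a gene of 10 CPM has few counts in the shallowest libraries. Counting intervals are exact at 95% and cover counting error only. The script was tested on simulated counts in which few genes were changed, in random directions. Such counts cannot show how the scaling behaves where 58.2% of genes are called.

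Named genes were the 15 largest changes per direction with at least 20 CPM on the higher side and no overlap between groups (low-depth libraries not counted), predicted genes and receptor segments left out, plus a set of marker genes and up to 8 members of each list with the smallest p. Other list members are given with the lists' counts and were picked for their known role. Some members of the lists are not reported here by name. The members and lists were chosen with earlier results of these data known. Alternatives were DESeq2 1.42.0, limma 3.58.1 (voom with quality weights), median-of-ratios scaling, no filter, the 12 libraries alone, a shared dispersion, a replicate block, each library left out, the low-depth libraries left out, and loci above 1% left out. Promoter sequences are from RefSeq.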

Additional observations from a re-analysis of the deposited data

How the results depend on the processing

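Across settings other than leaving out 1 library, 2828 to 4324 genes were higher and 3005 to 4508 lower at T20 than at T0, and at least 5132 of the 6863 calls were kept. With no filter on low counts, 4324 genes were higher, 1554 were lower in SOD1, 58 differed by genotype and 43 between T20 and T2. DESeq2 called 1 and 3 in the last 2 comparisons. Without the low-depth libraries, 1030 genes were lower in SOD1, where T20 then held 1 library, assumed to vary like the other groups. The share of calls that were higher was 55.2% with no filter and 53.4% with all loci above 1% left out, a setting added after seeing the data.

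Leaving out each library in turn gave 2436 to 3696 genes higher and 3167 to 4473 lower. In SOD1 it gave 1336 to 2662 higher (lowest without T20 SOD1 1) and 1573 to 3073 lower (1573 without T20 SOD1 3, 1752 without T0 SOD1 3, 1788 without T20 SOD1 1). In WT it gave 1347 to 2536 higher and 1657 to 3197 lower (1657 without T0 WT 1, 1662 without T0 WT 3, 1829 without T20 WT 2). The genotype difference stayed at 0, and T20 against T2 gave 0 to 1 (1 without T2 SOD1 2). T2 against T0 gave 2548 to 3601 higher and 3107 to 4351 lower.

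T0 and T20 libraries with the same replicate number correlated at 0.0169 to 0.0904 in their deviations from group means. With different numbers the range was -0.103 to 0.057. The column names number the T0, T2 and T20 libraries of each replicate in sequence, without saying whether they share an animal or culture. Not every library correlated best with its own number, so the numbers were not taken to pair them, and pairing remains possible. With the replicate block, 2828 genes were higher and 3954 lower, 6554 of the 6863 calls remained, and the genotype difference and T20 against T2 each gave 0.

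Of the named genes' results in these settings, 2237 kept their side of the threshold, 24 lost it, 1 passed only there (Cd8a, with no filter), and no gene that passed changed direction. Cd3e, which did not pass, ran from -0.20 to 0.36 in log2. Il17a had an adjusted p of 0.0544 with voom and 0.057 with the replicate block. Depth limits genes near 10 CPM and below. Without the low-depth libraries the members that fell numbered 3 for NF-kappaB, 2 for the early receptor genes, 1 for the Treg core, 0 for heat shock chaperones and 2 for superoxide defence, in which 15 rose.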
